A study of Mus musculus with 17 samples.

Results

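The 10 genes described here carry fatty acids from the blood into the fat cell and prepare them for storage. They were taken by name from a fixed set, *Lpl*, *Gpihbp1*, *Angptl4*, *Vldlr*, *Cd36*, *Fabp4*, *Fabp5*, *Slc27a1*, *Acsl1* and *Lmf1*, and each matched 1 of the 55401 gene identifiers in the data. The rule that picks them uses names and no measured value, but the set was drawn up with earlier results of these data known. The RNA came from whole perigonadal white fat (pWAT), a visceral depot that lies next to the ovary or testis, of 17 C57BL/6J mice. U9-KO mice are homozygous for a deletion of all exons of the lncRNA gene *U90926*, and the WT mice were their littermates from crosses of heterozygous parents. The 4 groups were 5 WT females, 5 U9-KO females, 3 WT males and 4 U9-KO males, fed a normal diet, and their labels name no treatment. The study's cohort went through a phenotyping pipeline that included food withdrawal, blood collection and a glucose injection. Which of these 17 mice had which screen is not given. The study's methods give the age of the mice as 16 weeks at collection, but other measurements of the same cohort are dated later, so the age is uncertain. The deletion is present in every cell type and from conception, and each mouse gave 1 library.

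Triglyceride travels in the blood inside lipoprotein particles and has to be split before its fatty acids can leave the capillary. Lipoprotein lipase, the product of *Lpl*, does this on the inner capillary wall. The enzyme is made by adipocytes, folded with the help of LMF1 in the endoplasmic reticulum, carried across the endothelial cell by GPIHBP1 and switched off by ANGPTL4, while the very low density lipoprotein receptor (*Vldlr*) brings particles to the cell surface. The freed fatty acids are taken up with the help of CD36 and the transport protein FATP1 (*Slc27a1*), joined to coenzyme A by the long-chain acyl-CoA synthetase ACSL1, and ferried through the cytosol by the binding proteins FABP4 and FABP5. Many of these genes are textbook targets of PPARγ, the transcription factor that drives fat cell differentiation.

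Summed over all genes, the deposited normalized counts came to between 20243688 and 28620744 per female library and between 22024872 and 23916425 per male library, with the highest total in U9-KO female 3. A normalized count is the number of reads on a gene after scaling by a library-wide factor and rounding, so the depth in reads is unknown. The targeted gene *U90926* was at 1 normalized count in a single female (WT 3) and a single male (WT 2) and at 0 in every other library, and it therefore does not check the genotype labels. The 12 adipocyte markers together summed to 283599 or more in every female and 555768 or more in every male, so adipocyte RNA was present in every library. The 12 ovary markers together ranged from 4105 to 125395 in WT females and from 5145 to 140311 in U9-KO females, against 208 to 454 in males, with the highest sums in U9-KO female 1 and WT female 4. Because these factors seem to belong to each sex separately, levels were compared by test within a sex, and between the sexes only as ratios inside a library.

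The levels of the 10 genes differed widely. Their joint share of all normalized counts lay at 1.05% to 1.81% in each female and at 2.35% to 3.15% in each male, and these ranges did not overlap. Per kilobase of annotated exon, *Fabp4* stood first in both sexes, with a mean of 23874 normalized counts per kb in females and 47084 in males. *Cd36* (13558 per kb) and *Lpl* (11168 per kb) came next in females, and *Lpl* (27989 per kb) and *Cd36* (24173 per kb) in males. *Slc27a1*, *Acsl1* and *Angptl4* formed a middle group, at 1854 to 3554 per kb (females) or 1786 to 2068 per kb (males). *Fabp5* (633 per kb in females and 730 in males), *Gpihbp1* (492 and 821) and *Vldlr* (226 and 220) were lower, and the lipase maturation factor *Lmf1* was lowest at 45 per kb in females and 48 in males. In females the ranges of neighbours in this order overlapped everywhere except between *Vldlr* and *Lmf1*. In males the order had clear steps after *Fabp4*, *Cd36*, *Angptl4*, *Fabp5* and *Vldlr*, where the ranges over the 7 mice did not overlap. The length used here is the union of all annotated exons, which lowers the value of genes with long or retained-intron transcripts.

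The question put to these genes was whether loss of *U90926* alters them in pWAT. None of the 10 passed the test in either sex. In limma on log2(normalized count + 1), fitted over all genes and with Benjamini-Hochberg adjustment, 0 of 10 had an adjusted p under 0.05 in females, where 0% of 24825 genes tested did, and 0 of 10 in males, where 0% of 21930 did. At an unadjusted p under 0.05 the count was also 0 of 10 in both sexes, beside 2.23% of all genes in females and 7.6% in males. In females 5 genes were higher and 5 lower in U9-KO, with 49.9% of all genes higher, and the median log2 fold change was 0.01 beside 0 over all genes. In males 7 were higher and 3 lower, with 50.1% of all genes higher, and the median was 0.11 beside 0.00065 over all genes. For no gene did the WT and U9-KO mice separate without overlap, a pattern shown by 0.238% of genes in females and 7.6% in males. With 3 mice against 4 an exact test cannot give a p below 0.0571, and with 5 against 5 the limit is 0.00794. The plot of values by mouse shows each animal.

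**Figure D1:**
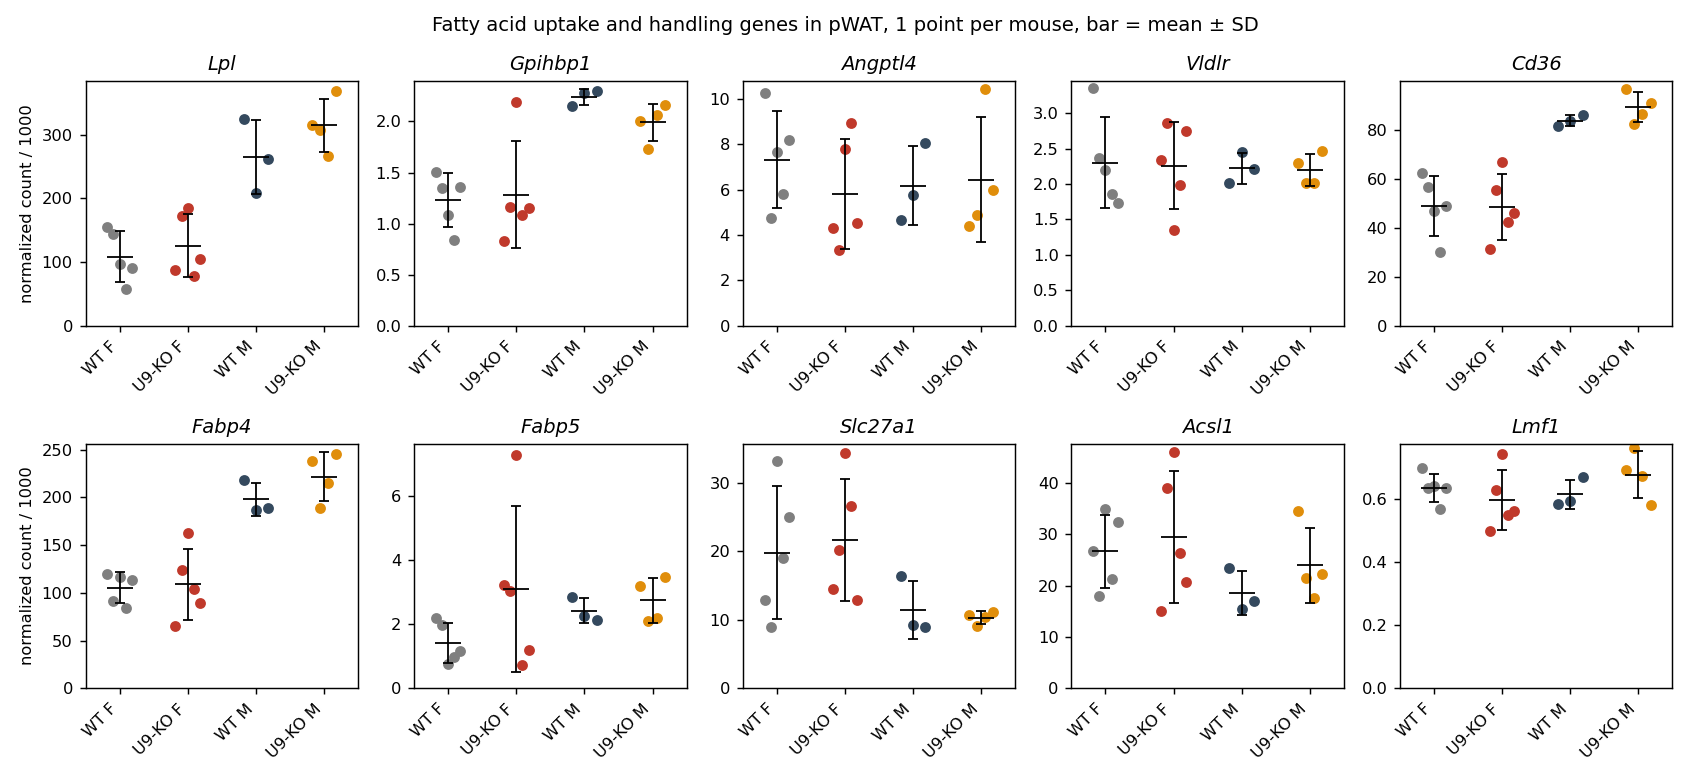
Normalized counts divided by 1000 (vertical axis, from 0) of the 10 genes in each mouse, with groups of WT and U9-KO females and males along the horizontal axis, 1 point per mouse and the mean ± SD as a bar. Within each sex the WT and U9-KO points overlap for every gene. Levels are not comparable between the sexes on this scale.

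*Lpl* (ENSMUSG00000015568, chromosome 8 from 68880491 to 68907448, plus strand of GRCm38) had 154802, 143435, 97206, 57004 and 90002 normalized counts in the 5 WT females and 88091, 172835, 184131, 77815 and 104841 in the 5 U9-KO females. Both groups therefore held animals near the bottom and near the top of the range. The mean was 108489.8 ± 40268 (SD, n = 5) for WT against 125543 ± 49443 (SD, n = 5) for U9-KO, and limma put the log2 fold change at 0.21 (SE 0.34, 95% interval -0.53 to 0.94). The 3 WT males had 323956, 208796 and 261703 normalized counts and the 4 U9-KO males 315710, 307533, 266785 and 368377, with a log2 fold change of 0.26 (SE 0.24, 95% interval -0.27 to 0.79). WT male 2 was the lowest male.

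*Lmf1* (ENSMUSG00000002279, chromosome 17 from 25579085 to 25662826, plus strand), whose product the lipase needs in order to fold, varied least of the 10 across females, with an SD of 0.17 on the log2 scale. The 10 females lay between 496 and 742 normalized counts and the 7 males between 580.0 and 760.0. The log2 fold change was -0.10 (SE 0.11) in females and 0.13 (SE 0.10) in males. The difference between these effects, 0.24 in the test of the interaction of sex and genotype (SE 0.16), had the smallest p of the 10 genes in that test, 0.168 by limma before adjustment.

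*Gpihbp1* (ENSMUSG00000022579, chromosome 15 from 75596628 to 75599481, plus strand) encodes the endothelial protein that anchors the lipase. Its level was 1509, 1346, 1081, 844 and 1357 in WT females and 833, 1161, 2195, 1080 and 1149 in U9-KO females, so that 1 animal, U9-KO female 3, stood far above the rest. The log2 fold change in females was 0.01 (SE 0.24, 95% interval -0.51 to 0.53). In males the level was 2147, 2274 and 2293 in WT and 2005, 1735, 2066 and 2161 in U9-KO. All WT values but the lowest lay above all U9-KO values, and the log2 fold change of -0.17 (SE 0.09, 95% interval -0.37 to 0.02) had the smallest p of the 10 genes in males, 0.0746 in limma before adjustment and 0.666 after it, and 0.114 when the means were set against all regroupings in an exact permutation test (two-sided). Under quantile normalization the limma p before adjustment was 0.0426. Of the 10 endothelial markers, 7 were lower in U9-KO males and 3 higher, with a median log2 fold change of -0.13, and 1 of them, *Egfl7*, had an unadjusted p under 0.05. In bulk tissue, fewer cells of a type and less RNA per cell cannot be told apart.

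*Angptl4* (ENSMUSG00000002289, chromosome 17 from 33773750 to 33781830, minus strand) encodes a secreted inhibitor of the lipase that is known to rise on fasting. WT females had 10266, 4746, 7651, 5806 and 8175 normalized counts and U9-KO females 4328, 3358, 7813, 8946 and 4547. Of the U9-KO values, 3 lay below every WT value and the rest inside the WT range, and the log2 fold change was -0.39 (SE 0.29, 95% interval -1.01 to 0.24). In males the values were 4663, 5787 and 8078 in WT and 4382, 4908, 10443 and 6010 in U9-KO, which is a log2 fold change of 0.01 (SE 0.28).

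*Vldlr* (ENSMUSG00000024924, chromosome 19 from 27216484 to 27254231, plus strand), the lipoprotein receptor of the group, ranged from 1725 to 3353 normalized counts in WT females and from 1355 to 2866 in U9-KO females. The log2 fold change of *Vldlr* was -0.03 (SE 0.22) in females and -0.02 (SE 0.10) in males, where the 7 values ran only from 2011 to 2472. *Cd36* (ENSMUSG00000002944, chromosome 5 from 17781690 to 17888801, minus strand), the fatty acid translocase, had 62215, 56504, 46812, 30005 and 48922 normalized counts in WT females and 31388, 55500, 66909, 42508 and 45968 in U9-KO females. The lowest animal of each group was the one with the highest ovary marker sum of that group. The log2 fold change of *Cd36* was -0.02 (SE 0.24) in females and 0.09 (SE 0.13) in males, whose values ran from 81538 to 96538.

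*Slc27a1* (ENSMUSG00000031808, chromosome 8 from 71568882 to 71587302, plus strand), the insulin-responsive fatty acid transporter of fat and muscle, varied more than *Cd36* in both sexes. WT females had 12853, 9011, 33200, 19002 and 24940 normalized counts and U9-KO females 14463, 20134, 34296, 26629 and 12856. The top animals of the groups, WT female 3 and U9-KO female 3, were close, and the log2 fold change was 0.18 (SE 0.37). In males WT male 1 had 16353 while the other 6 lay between 8884 and 11192, and the log2 fold change was -0.10 (SE 0.19).

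*Acsl1* (ENSMUSG00000018796, chromosome 8 from 46471037 to 46536051, plus strand), the main acyl-CoA synthetase of the adipocyte, had 26807, 18001, 34950, 21246 and 32359 normalized counts in WT females and 15078, 38907, 46030, 26350 and 20754 in U9-KO females. The U9-KO females included both the lowest and the highest value, and the log2 fold change was 0.07 (SE 0.30). In males it was 23485, 15376 and 16928 in WT and 34543, 21492, 17668 and 22273 in U9-KO. This gave the largest male log2 fold change of the 10 genes, 0.35 (SE 0.22, 95% interval -0.14 to 0.83), with a limma p of 0.145 before and 0.717 after adjustment. Without U9-KO male 1, the highest animal, the value was 0.16, and without WT male 1, the highest WT animal, it was 0.53 (limma p 0.0352 before and 0.279 after adjustment).

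*Fabp4* (ENSMUSG00000062515, chromosome 3 from 10204088 to 10208576, minus strand), the major lipid carrier of the adipocyte cytosol, ranged from 84388 to 120100.0 normalized counts in WT females and from 65303 to 163148 in U9-KO females. *Fabp4* had a log2 fold change of -0.00 (SE 0.25, 95% interval -0.55 to 0.54) in females and of 0.16 (SE 0.19) in males, where the values ran from 186674 to 244958.

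*Fabp5* (ENSMUSG00000027533, chromosome 3 from 10012548 to 10016607, plus strand), a binding protein found in fat, skin and macrophages, showed the widest spread of the 10 across females, with an SD of 1.05 on the log2 scale. WT females had 2200.0, 1972, 776, 994 and 1170.0 normalized counts and U9-KO females 3213, 3026, 7277, 740.0 and 1197. Of the U9-KO females, 3 lay above every WT female and 1 lay below every one. The means were 1422 ± 627 (SD, n = 5) and 3091 ± 2581 (SD, n = 5), and the log2 fold change of 0.80 (SE 0.54, 95% interval -0.39 to 1.99) was the largest of the 10 genes in either sex, with a limma p of 0.168 before adjustment and 1 after it and a two-sided exact permutation p of 0.183 for the means. Without U9-KO female 3, the highest animal, the log2 fold change was 0.38, and without U9-KO female 4, the lowest, it was 1.21 (limma p 0.0269 before and 0.872 after adjustment). In males the level was 2855, 2262 and 2143 in WT and 3190.0, 2104, 2198 and 3463 in U9-KO, and the log2 fold change was 0.16 (SE 0.18). The spread of *Fabp5* was widest among the U9-KO females, and the genotype difference did not pass the test.

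Fitted over both sexes with sex as a covariate, 0 of 10 genes had an adjusted p under 0.05, beside 0% of 26289 genes, and 0 of 10 an unadjusted p under 0.05, beside 4.02%. The interaction of sex and genotype gave 0 of 10 at an adjusted p under 0.05, beside 0% of all genes, and 0 of 10 at an unadjusted p under 0.05, beside 3.46%. The intervals leave room for changes of very different size. For *Lmf1*, *Vldlr*, *Cd36* and *Gpihbp1* in males the 95% intervals lay between -0.37 and 0.39 on the log2 scale, whereas for *Lpl*, *Slc27a1* and *Fabp5* in females they reached 0.94, 0.98 and 1.99.

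**Figure D2:**
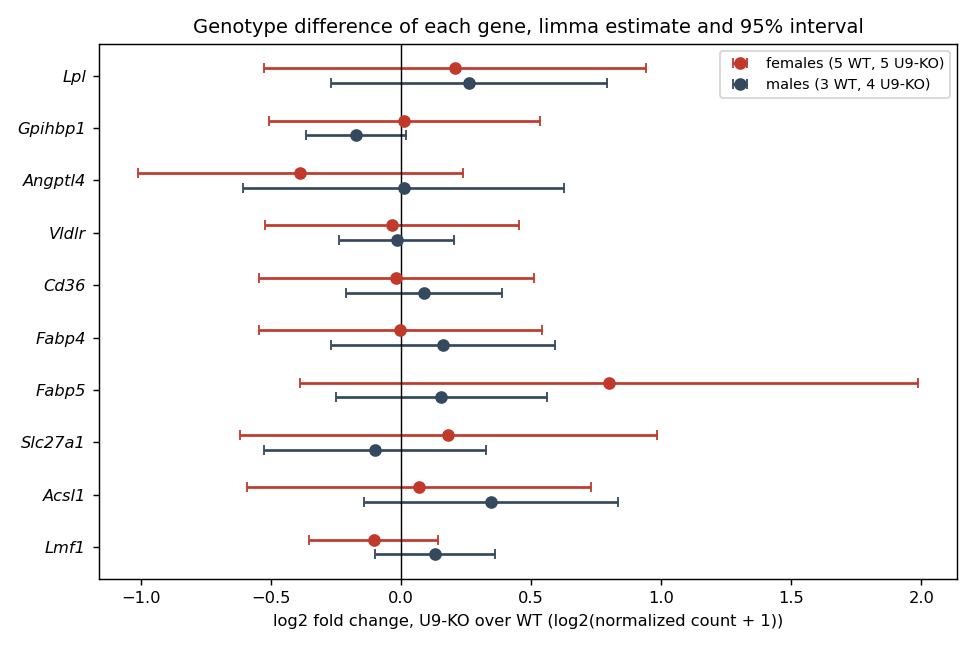
Log2 fold change of U9-KO over WT (horizontal axis, on log2(normalized count + 1)) for each of the 10 genes, estimated by limma in females and in males, with the 95% interval as a bar. Every interval includes 0, and the longest is that of *Fabp5* in females, from -0.39 to 1.99.

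Other genes of the same pathways were read from fixed lists, and no gene of any list had an adjusted p under 0.05. Of the 20 genes of lipoprotein lipolysis and its control, 18 were tested in females and 16 in males. None of them had an unadjusted p under 0.05 in either sex, and the most abundant, *Apoe*, a ligand of lipoprotein receptors, had means of 52026 ± 13008 (SD, n = 5) in WT and 49157 ± 8958 (SD, n = 5) in U9-KO females. In males *Apoe* was at 102748, 104630 and 133138 in WT and at 91945, 100710, 90597 and 88813 in U9-KO. All U9-KO males lay below all WT males, and the log2 fold change was -0.28 (SE 0.16) with a limma p of 0.103 before and 0.685 after adjustment. Of the genes of this list, 2 of the 16 tested in males did not overlap between the genotypes, beside 7.6% of all genes. All 12 lipoprotein receptor genes were tested in both sexes, and 0 of them had an adjusted p under 0.05. At an unadjusted p under 0.05 the count was 0 of 12 in females and 1 of 12 in males, beside 2.23% and 7.6% of all genes.

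Of the 14 fatty acid uptake genes, 0 of 14 in females and 4 of 13 tested in males had an unadjusted p under 0.05, beside 7.6% of all genes in males. The 4 were the transporter *Slc27a4* (log2 fold change 0.33), the caveola protein *Cav2* (0.21), the palmitoyltransferase *Zdhhc5* (0.20), which acts on CD36, and *Got2* (-0.24), a mitochondrial aminotransferase. The 21 genes of acyl-CoA synthesis and carriage likewise gave 0 in females and 4 in males, namely the acyl-CoA binding proteins *Dbi* (0.37), *Acbd4* (0.25) and *Acbd5* (0.15), which were higher in U9-KO males, and the synthetase *Acsm5* (-0.40), which was lower. *Dbi* was the most abundant gene of its list, at 25265 ± 4072 (SD, n = 3) in WT and 32382 ± 1996 (SD, n = 4) in U9-KO males. Of the 12 other binding proteins, 7 were tested in females and 6 in males. In females 1, *Fabp7*, had an unadjusted p under 0.05 (log2 fold change 0.86), beside 2.23% of all genes, and in males none had. *Fabp7* was near the floor, at 5 to 20 normalized counts in WT and 19 to 36 in U9-KO females, and the groups overlapped. Of 15 lipid-sensing transcription factors, 14 were higher and 1 lower in U9-KO females and 11 higher and 4 lower in U9-KO males, with medians of 0.15 and 0.10, and 1, *Nr1h2*, had an unadjusted p under 0.05 in males (log2 fold change -0.21). All male values share the same 3 WT mice, so these counts are not independent of each other.

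The same fits covered other gene groups, whose counts stand beside 49.9% of all genes higher and 2.23% at an unadjusted p under 0.05 in females, and 50.1% and 7.6% in males. The 9 lipogenic enzymes, which build new fatty acids, were all higher in U9-KO females (median log2 fold change 0.86, 0 with an unadjusted p under 0.05), and 8 were higher in U9-KO males (median 0.75, 4 with an unadjusted p under 0.05). All 10 macrophage markers were lower in U9-KO mice of both sexes, with medians of -0.19 in females and -0.38 in males and with 0 and 5 at an unadjusted p under 0.05. The 7 B cell markers had medians of 0.07 in females and -0.95 in males, with 0 and 5 at an unadjusted p under 0.05. The summed macrophage markers ranged from 14873 to 27620.0 in WT and from 14219 to 25411 in U9-KO females, and from 29658 to 48053 in WT and in U9-KO males from 22327 to 29108. The adipocyte markers had medians of -0.04 in females and 0.01 in males. The part of these groups in the values of the 10 genes was not tested.

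Some of the 10 genes varied together among the females. Over the 10 females of both genotypes, Pearson's r of log2(normalized count + 1) was computed for the 45 pairs of genes, and 9 pairs had a permutation p under 0.05 after Benjamini-Hochberg adjustment over the 45. All 9 were positive, and 3 of them also passed by Spearman's rho. The share of pairs that pass among other genes was not computed, so the count cannot be called particular to these genes. *Fabp4* and *Acsl1* were the closest pair (r 0.94, adjusted permutation p 0.00405, rho 0.92, adjusted permutation p 0.0103). *Gpihbp1* and *Cd36* had an r of 0.90 (adjusted permutation p 0.00652) and a rho of 0.94 (adjusted permutation p 0.0103). *Lpl* and *Cd36* had an r of 0.89 (adjusted permutation p 0.0069) and a rho of 0.90 (adjusted permutation p 0.0103).

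These 3 pairs also held without the 2 females farthest from the median of the first gene, with r of 0.88, 0.91 and 0.76. With each genotype centred on its own mean, r of the 9 pairs lay between 0.77 and 0.94. The other 6 pairs joined *Gpihbp1* to *Lpl*, *Fabp4* and *Lmf1*, *Cd36* to *Fabp4* and *Lmf1*, and *Fabp4* to *Lmf1*. Of these, r fell to 0.54 for *Lpl* and *Gpihbp1* without U9-KO female 3 and WT female 4. For *Gpihbp1* and *Fabp4* it fell to 0.49 without U9-KO females 3 and 1, so both pairs leaned on those animals. With 2 females left out in the same way, r was 0.63 for *Cd36* and *Fabp4* and 0.65 for *Fabp4* and *Lmf1*. It was 0.71 for *Gpihbp1* and *Lmf1* and 0.89 for *Cd36* and *Lmf1*. *Vldlr*, *Angptl4*, *Fabp5* and *Slc27a1* entered none of the 9 pairs. The lowest r of *Vldlr* was that with *Slc27a1*, -0.65, which did not pass (adjusted permutation p 0.134). In the 7 males 0 of 45 pairs passed the adjustment, and the closest pair was *Fabp4* and *Fabp5* (r 0.91, exact permutation p 0.00913 before and 0.411 after adjustment). All values of a library share its size factor, its depth and its mix of cells.

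**Figure D3:**
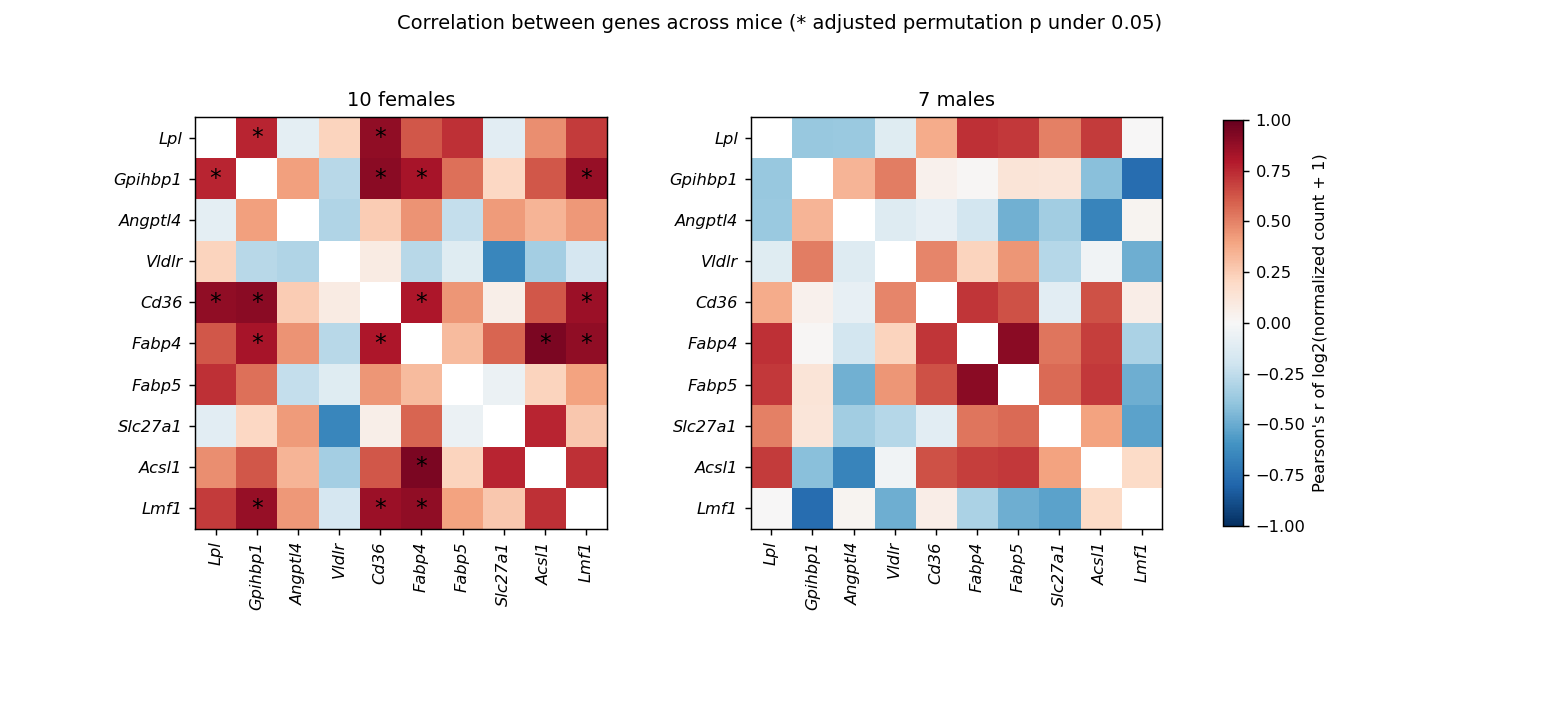
Pearson's r between each pair of the 10 genes across 10 females (left) and 7 males (right), on a colour scale from -1 (blue) to 1 (red), with a star where the adjusted permutation p was under 0.05. The left grid has 9 starred pairs among *Lpl*, *Gpihbp1*, *Cd36*, *Fabp4*, *Acsl1* and *Lmf1*, and the right grid has 0.

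The stretches before the transcription start are shown for *Cd36* and *Acsl1*, which entered pairs that passed in females, and for *Vldlr*, which entered none. *Acsl1* entered through its pair with *Fabp4*, and its r with *Cd36* was 0.62, which did not pass (adjusted permutation p 0.151). The sequences are from RefSeq on GRCm38.p6, which gave 9 start sites for 5 of the 10 genes (*Vldlr*, *Cd36*, *Slc27a1*, *Acsl1* and *Lmf1*), and *Lpl*, *Gpihbp1*, *Angptl4*, *Fabp4* and *Fabp5* had no entry. Each is the 250 bases before the start, written 5′ to 3′ on the strand of the gene, and capitals mark every match, on either strand, to the GC box GGGCGG, the CCAAT box CCAAT, the TATA box TATAAA or the nuclear receptor half-site AGGTCA.
*Cd36*, chr5:17835897-17836146, minus strand: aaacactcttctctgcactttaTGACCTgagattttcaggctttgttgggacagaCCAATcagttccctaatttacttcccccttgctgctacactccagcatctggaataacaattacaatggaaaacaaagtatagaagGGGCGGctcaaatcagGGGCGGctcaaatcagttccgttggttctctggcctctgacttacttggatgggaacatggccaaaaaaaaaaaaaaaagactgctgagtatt
*Acsl1*, chr8:46470787-46471036, plus strand: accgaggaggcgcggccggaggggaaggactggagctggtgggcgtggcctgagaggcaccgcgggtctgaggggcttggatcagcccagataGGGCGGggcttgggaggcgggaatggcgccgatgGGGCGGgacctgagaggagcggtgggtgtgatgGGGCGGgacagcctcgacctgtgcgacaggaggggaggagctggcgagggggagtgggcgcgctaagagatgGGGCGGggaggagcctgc
*Vldlr*, chr19:27216234-27216483, plus strand: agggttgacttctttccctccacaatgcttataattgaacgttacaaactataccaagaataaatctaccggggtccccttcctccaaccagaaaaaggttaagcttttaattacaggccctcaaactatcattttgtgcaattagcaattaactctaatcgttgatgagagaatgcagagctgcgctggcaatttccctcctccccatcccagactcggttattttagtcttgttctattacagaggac
The *Cd36* stretch, before a start site inside the annotated gene, holds 1 half-site 228 bases before the start, 1 CCAAT box and 2 GC boxes, the latter 109 and 93 bases before the start. The *Acsl1* stretch holds 4 GC boxes and has 72% G and C, and the *Vldlr* stretch printed holds no match and has 41.6%. The second *Vldlr* stretch, chr19:27216770-27217019, has 66.4% G and C and holds 1 GC box and 1 CCAAT box, 42 and 78 bases before its start, and the second *Acsl1* stretch has 48.4% and holds 2 CCAAT boxes and no GC box. The matches therefore do not set *Vldlr* apart from the other genes. Over the same 250 bases of all 32851 promoters, 32.7% hold a GC box, 33.8% a CCAAT box, 14% a half-site and 12.4% a TATA box, and of the 9 stretches of these genes 6, 5, 1 and 0 do. The full site of PPARγ with its partner RXR, AGGTCANAGGTCA, in which N is any base and which contains 2 half-sites, was in 0 of the 9 stretches and in 0.0335% of all. A match to these letters is a description and not a binding site, and known sites of these genes may lie outside this window.

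The genes were then set beside the summed level of gene lists in the same animals, a comparison added after the data had been seen. How many other genes would pass the same comparison was not computed. *Fabp5* followed the 9 lipogenic enzymes across females. The enzyme sum was 137908 in WT female 3 and 179704 in U9-KO female 4, the animals with 776 and 740.0 counts of *Fabp5*, and 3019592 in U9-KO female 3, with 7277. Over the 10 females r was 0.95 (permutation p 5e-05, 0.0015 after adjustment over the 50 relations in females) and rho 0.95 (permutation p 0.00016, 0.0035 after adjustment). Without U9-KO females 3 and 1, r was 0.95, and with each genotype centred on its own mean it was 0.94. *Fabp4*, its close relative, is not among the relations with the enzymes that passed, and *Lpl* had an r of 0.80 (adjusted permutation p 0.0328) but did not pass by rho (0.77, adjusted permutation p 0.081). In the 7 males the enzyme sums ran from 785403 to 1042483. *Scd1* made up most of them, with its highest value (883534) in WT male 2, where *Fasn* (47950) and *Acly* (6286) were lowest, while these enzymes reached 308595 and 35945 in other males. In males r of *Fabp5* with the enzymes was 0.40 (exact permutation p 0.432).

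*Lpl*, *Gpihbp1* and *Cd36* followed the 10 endothelial markers in females, with r of 0.88, 0.90 and 0.87 and adjusted permutation p of 0.0036, 0.00564 and 0.00217, and all 3 also passed by rho. Without the 2 animals farthest from the median r was 0.85, 0.79 and 0.81. *Gpihbp1* and *Fabp4* followed the adipocyte markers by both measures (r 0.91 and 0.90, adjusted permutation p 0.00287 and 0.0015). *Cd36* (r 0.92), *Lmf1* (0.81) and *Acsl1* (0.77) did so by r and not by rho, and for *Lmf1* and *Acsl1* r fell to 0.49 and 0.44 without U9-KO females 1 and 3. *Fabp4* was lower where the ovary markers were higher (r -0.82, adjusted permutation p 0.0147, rho -0.84, adjusted permutation p 0.0264), and r was -0.76 without U9-KO females 1 and 3. For *Cd36* the relation with the ovary markers (r -0.83, adjusted permutation p 0.0173) fell to -0.47 without WT female 4 and U9-KO female 1. The adipocyte, endothelial and ovary sums were themselves related across females, with r of 0.84 between adipocyte and endothelial markers and -0.84 between adipocyte and ovary markers, so the separate part of each was not tested. In males 0 of 40 relations passed the adjustment.

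**Figure D4:**
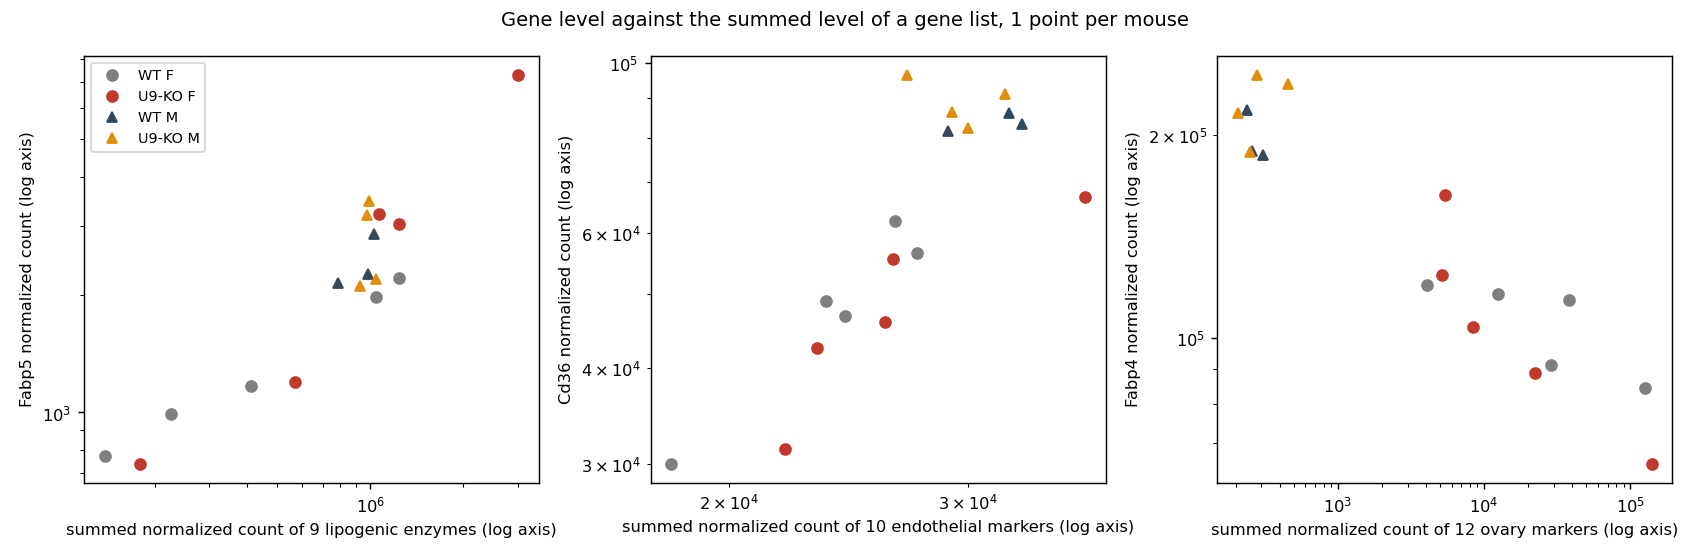
Normalized count of a gene (vertical, log axis) against the summed normalized count of a gene list (horizontal, log axis), 1 point per mouse, for *Fabp5* and the lipogenic enzymes, *Cd36* and the endothelial markers, and *Fabp4* and the ovary markers, with circles for females and triangles for males. In females the first 2 relations rise (r 0.95 and 0.87) and the last falls (r -0.82), while the males form a narrow cluster in each panel.

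Ratios inside a library do not depend on the size factor and can be set side by side in females and males. For each of 5 ratios 4 comparisons were made, between the genotypes in each sex and between the sexes in each genotype, with two-sided exact permutation tests of the log2 ratios and adjustment over the 20. None had an adjusted p under 0.05. Between the genotypes no ratio passed before adjustment either, with exact p of at least 0.222 in females and of at least 0.114 in males. The exact p between male genotypes cannot go below 0.0571, so those tests could not pass. Over the 20 tests, 1 comparison alone could not pass the adjustment even at the smallest exact p possible, 0.00794 between female genotypes.

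The ratio of *Angptl4*, the inhibitor, to its target *Lpl* was lower in males. Ratios of *Angptl4*, *Vldlr* and *Gpihbp1* to *Lpl* share their denominator and are not independent of each other. Mean normalized counts of *Lpl* were 117016 in females and 293266 in males. Beside these stood 6564 and 6324 for *Angptl4*, 2279 and 2211 for *Vldlr*, and 1256 and 2097 for *Gpihbp1*. That scale is not comparable between the sexes, and which gene of a ratio differed was not tested. The female libraries also held ovary markers, with sums from 4105 in WT female 1 to 140311 in U9-KO female 1, against at most 454 in males. The part of ovary RNA in the ratios that differed between the sexes was not tested. In WT females *Angptl4* stood at 6.63%, 3.31%, 7.87%, 10.2% and 9.08% of *Lpl*, and in the 3 WT males at 1.44%, 2.77% and 3.09%. The WT groups did not overlap, and the difference of -1.59 on the log2 scale had an exact permutation p of 0.0357, the smallest that 5 against 3 allows, and 0.102 after adjustment. In U9-KO mice the ratio was 4.91%, 1.94%, 4.24%, 11.5% and 4.34% in females and 1.39%, 1.60%, 3.91% and 1.63% in males, a log2 difference of -1.24 (exact permutation p 0.0317, adjusted p 0.102) with overlap through U9-KO female 2 and U9-KO male 3.

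*Vldlr* relative to *Lpl* was likewise lower in males, at 1.65% to 3.26% in WT females against 0.621% to 1.17% in WT males without overlap, a log2 difference of -1.36 (exact permutation p 0.0357, adjusted p 0.102). U9-KO females lay at 0.736% to 2.65% and U9-KO males at 0.656% to 0.758% (log2 difference -1.40, exact permutation p 0.0317, adjusted p 0.102), where the lowest female, U9-KO female 3, lay inside the male range. *Gpihbp1* relative to the summed endothelial markers was higher in males, at 4.44% to 5.76% in WT females against 6.92% to 7.40% in WT males without overlap (log2 difference 0.50, exact permutation p 0.0357, adjusted p 0.102), and at 3.79% to 6.00% against 5.79% to 7.42% in U9-KO mice (log2 difference 0.55, exact permutation p 0.0317, adjusted p 0.102).

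*Gpihbp1* relative to *Lpl* was lower in U9-KO males than in U9-KO females (log2 difference -0.70, exact permutation p 0.0317, adjusted p 0.102), and in WT mice the difference was -0.46 (exact permutation p 0.143). *Fabp5* relative to *Fabp4* was 0.667% to 2.16% in WT females, 0.713% to 4.92% in U9-KO females, 1.13% to 1.31% in WT males and 1.02% to 1.41% in U9-KO males. The 7 males lay within the range of the females for this ratio, and the sexes differed by -0.05 in WT (exact permutation p 1) and by -0.86 in U9-KO mice (exact permutation p 0.206) on the log2 scale.

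**Figure D5:**
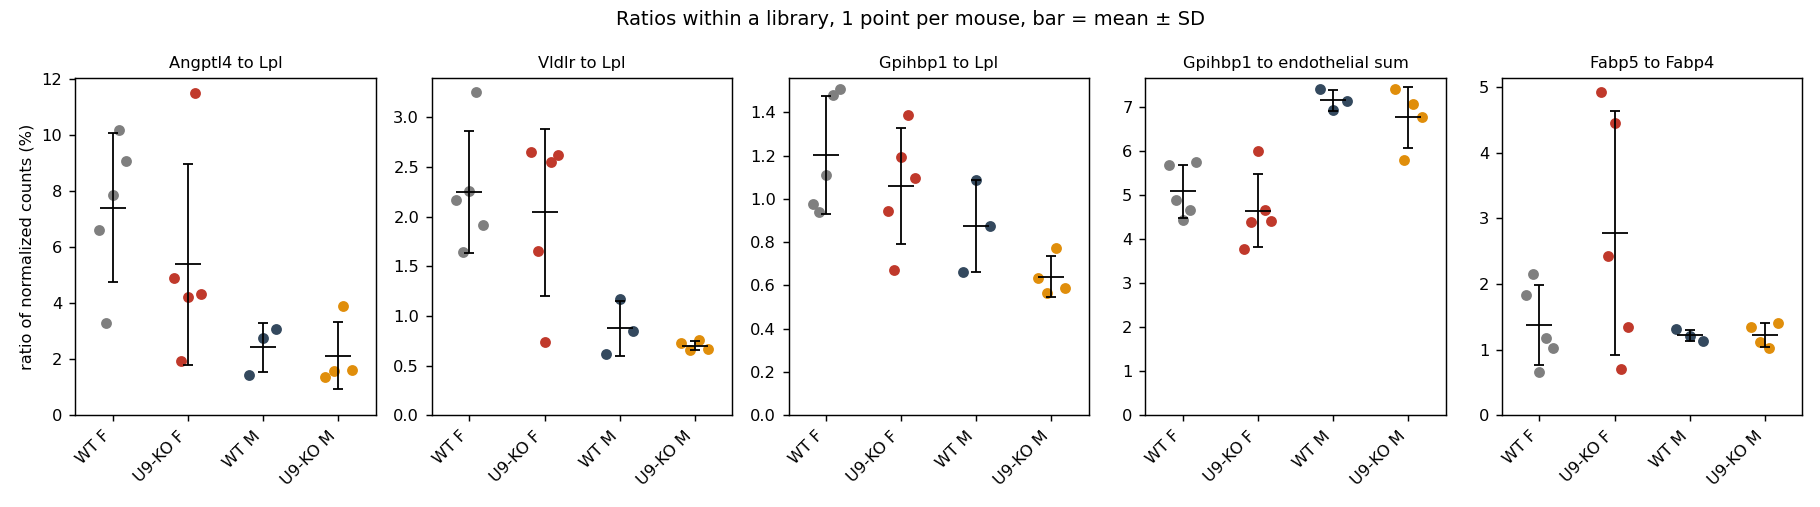
Ratio of normalized counts within a library in percent (vertical axis, from 0), for *Angptl4*, *Vldlr* and *Gpihbp1* over *Lpl*, *Gpihbp1* over the sum of 10 endothelial markers and *Fabp5* over *Fabp4*, by group, 1 point per mouse with the mean ± SD as a bar. WT males lie below all WT females for *Angptl4* (at most 3.09% against at least 3.31%) and *Vldlr* over *Lpl*, and above them for *Gpihbp1* over the endothelial markers.

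Reads that other genes could share with these 10 were looked for as identical runs of 100 bases in the annotated transcripts. *Fabp5* shared 2.19% of its runs with the processed pseudogene *Gm6166*, which had 5 to 78 normalized counts, and 0.683% with *Gm14328*, which had at most 5. *Acsl1* shared 8.45% with *Gm45244*, which overlaps its exons on the opposite strand and had at most 44, and *Lpl* shared under 1% with any other gene. *Gpihbp1*, *Angptl4*, *Vldlr*, *Cd36*, *Fabp4*, *Slc27a1* and *Lmf1* shared none, and no exon of the 10 genes but those of *Acsl1* overlapped another annotated gene.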

How the data were processed

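RNA-seq libraries from whole pWAT of 17 mice were read from the deposited files, 1 per mouse. The authors trimmed reads, aligned them by STAR and obtained gene counts from summarizeOverlaps (Union mode), which they normalized, and the submitters' processing notes name STAR 2.7.3a, DESeq2 1.28.1 and GRCm38. Each deposited value is a score, the authors' normalized count, that is reads per gene scaled by a library-wide factor and rounded to a whole number. The series table repeats the single libraries and was not used. For 2 male libraries the replicate number in the file header differs from that in the label, and the label was followed.

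Gene names and positions are from GENCODE M21, which named 55141 of 55401 identifiers. As no raw counts were at hand, limma 3.58.1 in R 4.3.3 was run on log2(normalized count + 1) with its trend option, keeping genes with a total of at least 10 in the mice of a fit, separately in females and males, over both sexes (sex as covariate), and for the sex by genotype term. The fits were tested on simulated data. A fold change on this scale understates low genes. Calls needed a Benjamini-Hochberg adjusted p under 0.05. Single genes and ratios were compared by exact permutation tests, two-sided, in scipy 1.17.1 (Python 3.11.15, numpy 2.4.6, pandas 2.3.3), and correlations by 100000 resamples in females and all 5040 orders in males. Which mice shared a litter or cage is not given, and the p-values rest on the variation between these animals, taken as independent.

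The members and lists were chosen with earlier results of these data known. The rule named all 10 genes and, in each list, the 3 most abundant genes and any past an adjusted p of 0.05; of the list genes, those that a result turns on are printed, and 1 gene is not reported here. Other genes named, among them those with an unadjusted p under 0.05, were chosen after their values were seen. The lists were lipoprotein lipolysis, lipoprotein receptors, fatty acid uptake, binding proteins, acyl-CoA synthesis, lipid-sensing transcription factors, adipocyte genes, lipogenic enzymes and markers of endothelium, macrophages, ovary and B cells; lists for epididymis, skeletal muscle and brown fat are given in the closing section. The alternatives tried were other pseudocounts and filters, no trend, robust empirical Bayes, quantile normalization, rescaling, a replicate block, all mice in 1 fit, an ovary covariate, no sex covariate, and leaving out each mouse. Correlations with list sums were added after the data were seen.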

Additional observations from a re-analysis of the deposited data

Results flagged for a closer look

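A single animal lay far from the rest of its group in 2 of the 45 sets of 4 or 5 mice that were examined, by the gap to the nearest animal as a share of the range (Dixon's 95% limits). Chance alone flags about 1 set in 20, or 2.25 of 45. *Gpihbp1* had 2195 normalized counts in U9-KO female 3, while the other U9-KO females lay between 833 and 1161. This animal also had the highest sums of the endothelial markers (36574) and the lipogenic enzymes (3019592) among the females. The log2 ratio of *Angptl4* to *Lpl* reached -4.68 in U9-KO male 3, while the rest of that group ran from -6.17 to -5.94. *Angptl4* was highest in that animal (10443), and *Lpl* was lowest in its group (266785).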

How the results depend on the processing

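The count of the 10 genes with an adjusted p under 0.05 was 0 in females, in males, over both sexes and for the interaction under every alternative that was run. Exact permutation tests, run only within each sex, also gave 0 of 10 at an unadjusted p under 0.05. In males this outcome was fixed, because the exact p cannot go below 0.0571 there. Among all genes the count moved from 0 to 1 without the trend in females, in males and over both sexes, to 1 with a pseudocount of 0.5, without a filter or without the sex covariate over both sexes, to 1 without a filter for the interaction, and to 71 in males without WT male 1, with 0 of the 10 genes among them. With the replicate block, the counts were 0 as well, and in males this fit drops U9-KO male 4. The *Fabp5* log2 fold change in females with the block was 0.80 and that of *Gpihbp1* in males -0.21. Same-numbered mice did not deviate together (correlations from -0.43 to 0.12 over the female pairs and from -0.12 to 0.01 over the male pairs), and no mouse matched its own number best. With so few pairs, and other numbers in some male file headers, this cannot exclude a shared litter, cage or processing step.

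The log2 fold changes of single genes, none past the threshold in any fit, changed sign under quantile normalization to -0.029 for *Lpl*, -0.012 for *Gpihbp1* and -0.057 for *Acsl1* in females and to -0.023 for *Angptl4* and -0.13 for *Cd36* in males, and with the ovary markers as a covariate to -0.022 for *Gpihbp1* in females. Leaving out 1 mouse at a time, the female values that changed sign ranged from -0.0008 to 0.36 for *Lpl*, -0.20 to 0.15 for *Gpihbp1*, -0.13 to 0.14 for *Vldlr*, -0.18 to 0.13 for *Cd36*, -0.16 to 0.17 for *Fabp4*, -0.065 to 0.40 for *Slc27a1* and -0.12 to 0.28 for *Acsl1*. The male values that did so ranged from -0.25 to 0.22 for *Angptl4*, -0.086 to 0.055 for *Vldlr* and -0.25 to 0.19 for *Slc27a1*. The causes were not tested.

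Leaving out 1 mouse also moved the log2 ratios. Between U9-KO males and females they ranged from -1.58 to -0.91 for *Angptl4* to *Lpl*, from -0.85 to -0.59 for *Gpihbp1* to *Lpl*, from -1.73 to -1.27 for *Vldlr* to *Lpl* and from 0.48 to 0.65 for *Gpihbp1* to the endothelial sum. Each of these 4 ratios was fitted with 1 of the 5 females or 4 males left out in turn. In most of these fits, 28, the exact p rose above 0.05. With 5 against 3 mice an exact p of 0.0357 remains possible, and the reason for the rise was not tested. Between WT males and females the exact p cannot go below 0.0571 once a mouse is left out, so those fits give values with no test. The range was -0.37 to 0.089 for *Vldlr* to *Lpl* between female genotypes, -0.079 to 0.077 for *Fabp5* to *Fabp4* between male genotypes and -0.28 to 0.14 for the same ratio between WT males and females. For *Gpihbp1* to the endothelial sum between female genotypes it was -0.23 to -0.069, and without U9-KO female 3 the value of -0.23 had an exact permutation p of 0.0317 before adjustment. The number of mice, 3 to 5 a group, limits every comparison, and the number of reads behind a value is unknown.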

Other observations

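Marker lists for tissues that a pWAT sample could also hold gave low sums. Over all genes, 49.9% were higher in U9-KO females and 50.1% in U9-KO males, and 2.23% and 7.6% had an unadjusted limma p under 0.05. Of 6 brown fat markers, 5 were higher and 1 lower in U9-KO females (median log2 fold change 0.69), with *Cidea*, a lipid droplet protein, at an unadjusted limma p of 0.0175, and the sums were 169 to 374 normalized counts in WT and 198 to 1186 in U9-KO females. In males 5 brown fat markers were tested, 4 of them higher, with sums of 118 to 883 in WT and 222 to 1015 in U9-KO. Of 7 skeletal muscle markers tested in females, 6 were lower in U9-KO (median -0.39), and 1 had an unadjusted p under 0.05. This was *Acta1*, the skeletal actin, at 324 ± 141 (SD, n = 5) in WT and 94 ± 73 (SD, n = 5) in U9-KO females (unadjusted limma p 0.00251). The groups did not overlap for *Acta1*, as for 0.238% of all genes, but the lowest WT value was 181 and the highest U9-KO value 178. The means of *Actn3* (140 in WT, 133 in U9-KO) and *Tnnt3* (85 and 82) were close. In males 3 of 6 muscle markers were higher and 3 lower. The epididymis markers summed to at most 758 in females and at most 23 in males. Females have no epididymis, so the list does not mark that tissue in them. *Cst8* alone gave 710 of the 758, which came from U9-KO female 1.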
